A study of Mus musculus with 4 samples.

Results

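The cilium genes described here are 113 of the 20665 autosomal protein-coding mouse genes. They were chosen by symbol alone: the families Dnah, Cfap, Rsph, Tekt, Drc, Ift, Bbs, Rfx and Spag, each prefix followed by a number, and 8 genes taken by name (Mcidas, Gmnc, Ccno, Ccdc39, Ccdc40, Deup1, Tppp3 and Tmem212). The motile subset holds 71 of them (all but the Ift, Bbs, Rfx and Spag families), the Ift and Bbs families hold 22, Rfx holds 8 and Spag holds 12. A symbol is not a function, and the motile subset was set by family and name, without a check that each gene is particular to motile cilia. Rfx5, which regulates MHC class II genes, Rfx6, a factor of the endocrine pancreas, Spag5, a mitotic spindle protein, and Spag9, a kinase scaffold, were kept although they are not cilium components.

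As background, a cilium is a membrane-covered bundle of microtubules, the axoneme, that grows from a centriole. Motile cilia, which ependymal cells carry in tufts to move cerebrospinal fluid, add dynein arms, radial spokes and a nexin-dynein regulatory complex, whereas the single primary cilium of most cells lacks these and serves in signalling. Intraflagellar transport (the Ift proteins) builds both kinds, the BBSome (Bbs proteins) carries membrane cargo, and Rfx factors bind the X-box, a palindromic promoter element of many cilium genes.

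The study used H3K27ac HiChIP, in which chromatin fragments that lie together are ligated and those bearing acetylated histone H3 lysine 27, a mark of active promoters and enhancers, are enriched. Its labels describe 2 libraries of wild-type mouse neural stem cells (mNSC), cultured with EGF and basic FGF, and 2 libraries of cells taken from mouse brain tumors with the YAP-M fusion, understood here as YAP1 joined to MAMLD1. The library titles say ChIP-seq, whereas the protocol and design text name HiChIP. The series title places the work in ependymoma. How the fusion was introduced, how the cells were isolated and how many animals gave tissue is not stated in the labels. The 1 list of 99041 significant interactions, each a pair of 10 kb bins 20 to 1000 kb apart, bears the letters YM, read here as the tumor, but is tied to no library. It holds no counts, so depth is unknown, no replicate spread exists, and stem cells were not compared. A contact in a few cells cannot be told apart from a weak one in many. Of all coding genes, 65.7% had an interaction at a gene end. Of 13 ependymal, neural progenitor and YAP reporter genes, all had an interaction, with counts from 1 (S100b, Aqp4 and Prom1) to 46 (Cd24a). Merging of adjacent interactions left 3 contacts for Cd24a. Among markers of other cells that the tumor could hold, all 6 microglia genes had 2 to 4. For choroid plexus it was 3 of 5 with at most 2 (Otx2 and Kcnj13 at 0), for neurons 2 of 4 with 1 each, and for oligodendrocytes 1 of 2 (Mbp with 3). Of 6 testis genes, listed since sperm tails share axonemal genes, 4 had one, led by the neighbours Prm2 and Tnp2 with 16 each. Their part in the counts below was not tested.

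A gene was credited with every interaction that had an anchor bin within 2.5 kb of its lowest or highest coordinate. Of the 113 cilium genes, 82 had at least 1 (72.6%, exact binomial 95% interval 63.4 to 80.5%), beside 65.7% of all coding genes. At least 10 interactions were found for 15 (13.3%, interval 7.62 to 20.9%), beside 17.1% of all coding genes. The median was 3 per cilium gene (quartiles 0 and 6), beside 2 (0 and 7) over all coding genes, and the largest count was 24, beside 144. These shares lay near those of coding genes in general. No test was made, since genes of 1 list are not replicates. The intervals cover counting error only.

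The Ift and Bbs families had an interaction more often than the motile subset, but fewer of their genes had many. At least 1 interaction was found for 19 of 22 Ift/Bbs genes (86.4%, interval 65.1 to 97.1%) and for 49 of 71 motile genes (69.0%, interval 56.9 to 79.5%), and the intervals overlap. At least 10 were found for 2 Ift/Bbs genes (9.09%, interval 1.12 to 29.2%) and for 12 motile genes (16.9%, interval 9.05 to 27.7%), again with overlapping intervals. Both subsets had a median of 3, with quartiles 1 and 5.75 in Ift/Bbs and 0 and 7 in the motile subset. The difference was not tested.

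**Figure D1:**
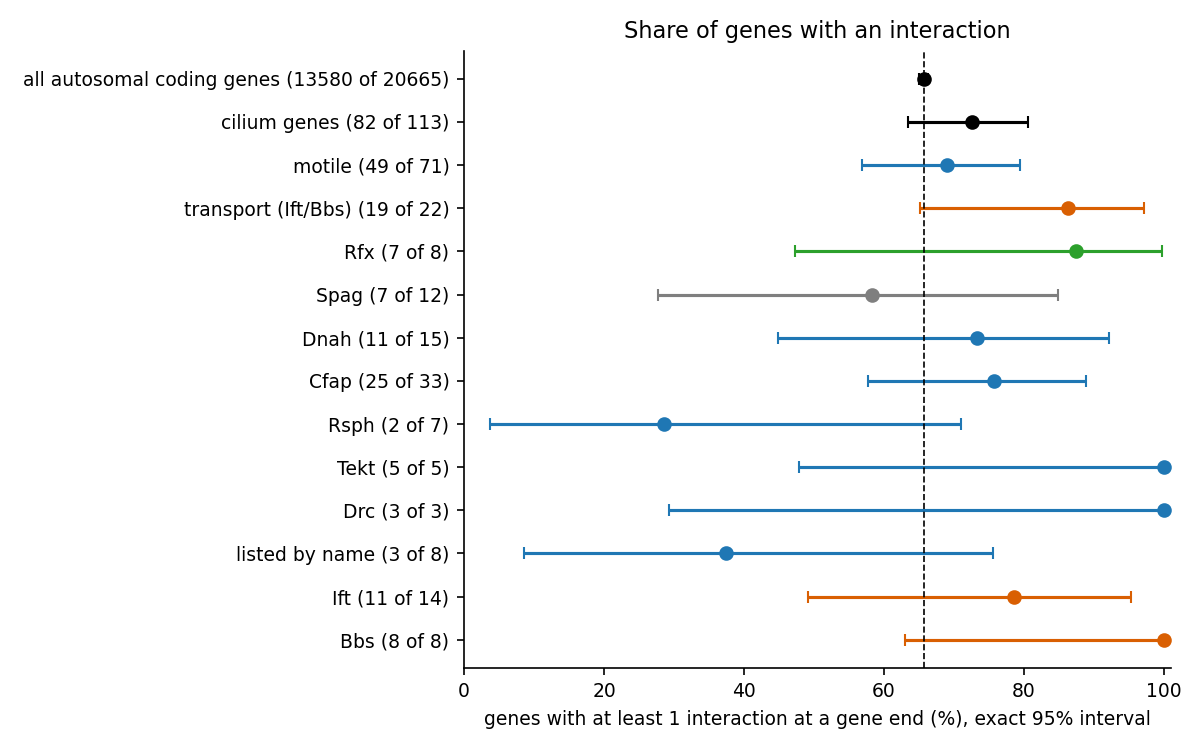
Percentage of genes with at least 1 interaction at a gene end (x axis) for each subset and family (y axis, number of genes with an interaction and number in all), with exact binomial 95% intervals as bars; the dashed line is the share of all autosomal coding genes, 65.7%. The Rsph family and the 8 genes taken by name have the lowest shares, and every interval for a family of 8 or fewer genes except that of Bbs spans at least 40 percentage points.

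Sharing of bins differed between the subsets too. A 10 kb bin often holds the ends of several genes, and its interactions then cannot be assigned to one of them. Of all coding genes, 38.8% were alone in their end bins, beside 32.4% of motile genes (23) and 18.2% of Ift/Bbs genes (4). Among genes alone in their bins, 18 of 23 motile genes (78.3%) and 3 of 4 Ift/Bbs genes had an interaction, beside 50.5% of coding genes that were alone. Among genes with a shared bin, it was 31 of 48 motile genes (64.6%) and 16 of 18 Ift/Bbs genes (88.9%), beside 75.4% of coding genes. The order of the subsets in share was therefore reversed among genes alone in their bins, where Ift/Bbs rests on 4 genes.

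**Figure D2:**
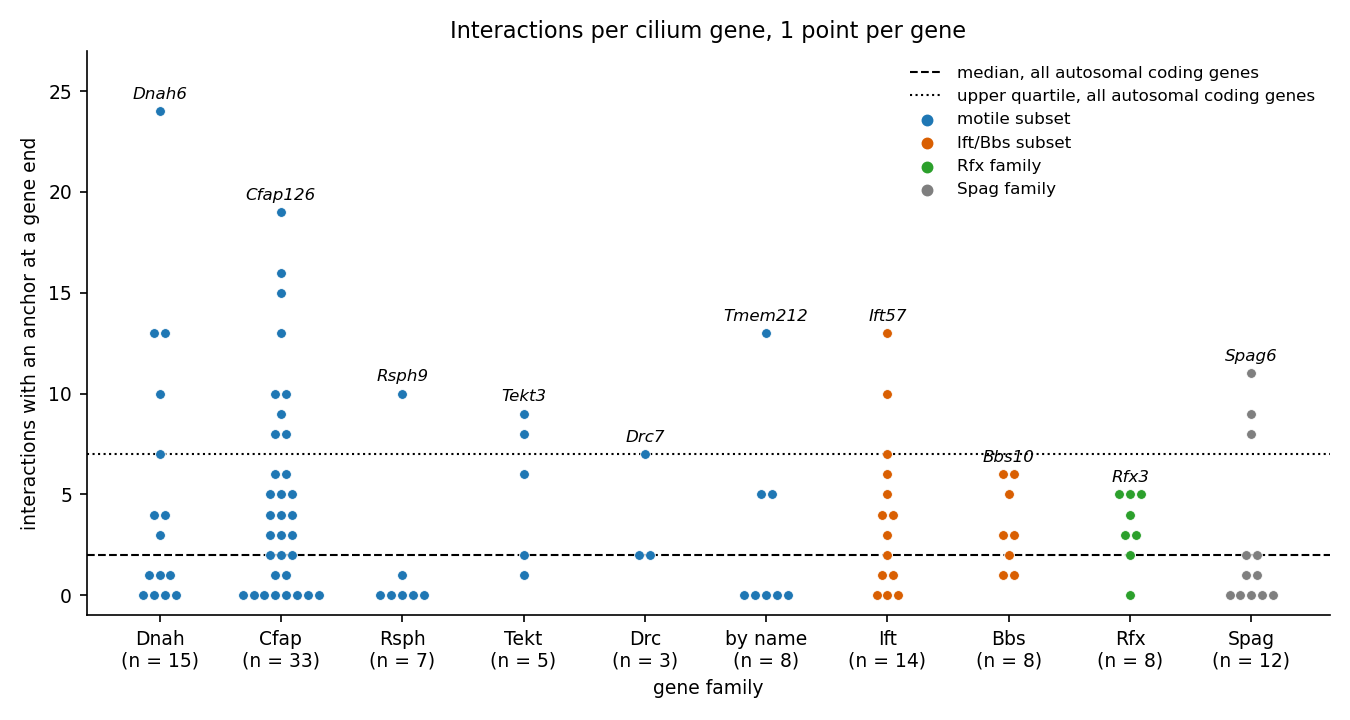
Interactions per cilium gene (y axis, number with an anchor at either gene end) by family (x axis), 1 point per gene, coloured by subset; the dashed and dotted lines mark the median (2) and upper quartile (7) of all autosomal coding genes. Dnah6 has the highest count, 24, and the Bbs and Rfx families stay at 6 or below.

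Axonemal dynein heavy chains, the motors of the dynein arms, spanned the whole range. Of 15 Dnah genes, 11 had an interaction (73.3%, interval 44.9 to 92.2%) and 4 had 10 or more (26.7%, interval 7.79 to 55.1%). Of all coding genes it was 65.7% and 17.1%, and both intervals include these shares. At tabulated starts, 7 of 14 Dnah genes had an interaction (50%) and 2 had 10 or more (14.3%), beside 60.1% and 11.4% of coding genes. Dnah6, an inner-arm chain on chromosome 6 (73017603 to 73222227, minus strand), had 24 interactions, and 2.64% of coding genes had as many or more. Its bins held no end of another coding gene. At its start end lay 16 and at its opposite end 10, of which 2 joined both ends of the gene. The other 22 ran toward lower coordinates, up to 330 kb. Of these, 6 ended in a bin with an end of Tmsb10, which encodes the actin-binding thymosin beta 10, and 2 at Kcmf1. Merging of adjacent interactions left 9 contacts. Where a bin's midpoint had to lie in the window, Dnah6 had 0. No midpoint lies in the windows at its ends, so coordinates alone fixed that 0. Dnah7a, an inner-arm chain chosen after its value was seen, also was alone in its bins and had 13, all at its start end. Of these, 5 went into or past the gene as far as Osgepl1 and Ormdl1, and 8 went the other way to bins without a coding-gene end. Its relatives Dnah7b and Dnah7c had 4 and 1, and 1 interaction of 360 kb joined a bin at each. It was the only interaction that linked 2 members of the 113.

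The outer-arm chains, which drive the beat, ranged from 0 to 13. Dnah5, often mutated in primary ciliary dyskinesia, had 7 at the outermost annotated start, all toward lower coordinates at 120 to 260 kb, 1 of them at an end of Trio, which encodes a guanine nucleotide exchange factor. The tabulated RefSeq start of Dnah5 lies inside the gene and had 0. Dnah9 and Dnah11, further outer-arm chains, had 0 at their ends, and Dnah8 had 1. Dnah17, an outer-arm chain known from sperm, had 13, but 11 lay at the end opposite to the start, in bins shared with an end of Pgs1, and reached Socs3, a cytokine signalling inhibitor. Dnah2, an inner-arm chain chosen after its value was seen, had 10, all at the end opposite to the start. They lay in a bin with an end of the histone demethylase gene Kdm6b, and with no window Dnah2 had 0. Its partners held ends of Aurkb, Per1 and Hes7, among 7 coding genes.

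Among the Cfap genes, which encode varied cilia- and flagella-associated proteins, 25 of 33 had an interaction and 6 had 10 or more. These shares, 75.8% and 18.2%, stand beside 65.7% and 17.1% of all coding genes. Cfap126 had 19, of which 18 went to higher coordinates. Its partner bins lay mostly in 1 block 80 to 170 kb away and held ends of 13 coding genes, among them the protease gene Adamts4. The end bins of Cfap126 also held an end of Sdhc, and merging of adjacent interactions left 3 contacts. Cfap45, which encodes a protein inside axonemal microtubules, had 16, all at its start end and in bins with no other coding-gene end. They fell into separate groups: 4 at 100 to 120 kb toward lower coordinates in bins without a coding-gene end, 1 at 150 kb to Kcnj10 and Pigm, 3 at 70 to 110 kb on the other side to Fcrl6, Slamf8 and Dusp23, and 8 at 870 to 930 kb with no coding-gene end. The count was 10 with no window around the gene end. By bin midpoint it was 0, since the window at the start end holds no midpoint. Cfap43 had 10, of which 9 lay at the end opposite to the start, in bins with an end of Sfr1. Cfap44 had 2, both also opposite to the start, in bins with an end of Boc.

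In the remaining axonemal families an interaction was found for all 5 tektin genes (interval 47.8 to 100%), all 3 Drc genes (29.2 to 100%) and 2 of 7 radial spoke genes (3.67 to 71.0%). These intervals overlap, and each includes the 65.7% of all coding genes. Tektins form filaments within the microtubule wall. Tekt3 had 9 in bins of its own, with partners at Pmp22 and Cdrt4. Tekt2 had 8 in bins shared with ends of Adprhl2, Ago3 and Col8a2, and Tekt1 had 6. Drc7, of the nexin-dynein regulatory complex, had 7, all opposite to the start (0 with no window), and Drc1 had 2. No Drc gene was alone in its end bins. Rsph9, a spoke-head component, had 10, 8 of them opposite to the start, in bins shared with ends of Mad2l1bp and Mrps18a. Most reached a block 370 to 440 kb away that holds an end of the predicted gene 1600014C23Rik, and 1 went 90 kb to Vegfa, the angiogenic growth factor gene. Rsph3a had 1, and Rsph1, Rsph3b, Rsph4a, Rsph6a and Rsph14 had 0. With a window of 5 kb Rsph1 and Rsph3b had 3 each, and with none Rsph9 had 4.

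Several genes that drive multiciliation were at 0, as were 7085 of the 20665 coding genes. Mcidas and Gmnc, co-regulators that start the programme, Ccno, a cyclin needed for centriole amplification, and Deup1, which builds the deuterosomes on which centrioles multiply, had no interaction at either end. Mcidas and Ccno are neighbours whose bins overlap, so they are not 2 separate observations. Ccdc39, a ruler protein of the axonemal repeat, had 0, and its partner Ccdc40 had 5, in bins with ends of Gaa and Tbc1d16 and with partners at the Polycomb genes Cbx2 and Cbx8. Tppp3, a tubulin-binding protein of ciliated cells, had 5, all within 110 kb and in a bin shared with an end of Zdhhc1. Tmem212, an ependymal marker, had 13 in bins of its own, but 11 of them lay at the end opposite to its start, and its partners reached toward lower coordinates as far as 390 kb, 4 of them at an end of Fndc3b. Among 12 other regulators of multiciliation, 10 had an interaction (83.3%), beside 65.7% of all coding genes, and the median was 1.5, beside 2. Cep63 had 13 and Foxj1, the master factor of motile cilia, had 9. Each of these 2 genes shared an end bin with another coding gene, and merging of adjacent interactions left 2 contacts for Foxj1. Myb had 2, Trp73, E2f5, Foxm1 and Cdc20b had 1 each, and Foxn4 and Cep152 had 0. A gene at 0 was not detected in this list at an unknown depth; it was not shown to lack contacts.

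Intraflagellar transport genes had an interaction in 11 of 14 cases (78.6%), and all 8 Bbs genes had one, beside 65.7% of all coding genes. No Bbs gene was alone in its end bins, and of coding genes with a shared bin 75.4% had an interaction. Ift57, a peripheral subunit of the IFT-B complex, had 13 in bins of its own (5 at its start end and 8 at the opposite end), all toward higher coordinates. Of these, 5 ended at Cd47, the gene of the integrin-associated surface protein, and 1 spanned 970 kb. Ift43, of the IFT-A complex, had 10, of which 9 lay at its start end in a bin shared with an end of Tgfb3, a TGF-beta ligand gene, so they cannot be assigned to one of the 2 genes. With a window of 5 kb Ift43 had 28. Ift88 and Ift172, also IFT-B subunits, had 0 (Ift172 had 1 with a window of 5 kb). Bbs2 had 6, all at its start end and 50 to 110 kb long, of which 3 ended at the metallothionein genes Mt1, Mt2 and Mt3. Bbs10, a chaperonin-like assembly factor, had 6, of which 3 ended at Nap1l1 and 1 reached Krr1 at 680 kb. The end bins of Bbs10 also held an end of Osbpl8, and merging of adjacent interactions left 3 contacts. The BBSome genes Bbs4 and Bbs1 had 3 and 2, those of Bbs1 in a bin shared with an end of Dpp3.

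In the Rfx family, the factors that bind the X-box, 7 of 8 genes had 2 to 5 interactions. Of all coding genes, 65.7% had at least 1. Rfx2, Rfx3 and Rfx4, which are known for cilium gene control, had 3, 5 and 3, every one at the start end and in bins with no other coding-gene end. Rfx3 had 4 partners 560 to 590 kb from the anchor at its start, past its opposite end, of which 2 held an end of Pum3, and 1 partner at 610 kb on the other side. Rfx4 had 1 partner 50 kb inside the gene and 2 at 100 and 110 kb outside it. Rfx2 had 2 partners inside the gene, only 20 and 30 kb away, and 1 at 70 kb outside it. With a minimum distance of 40 kb, Rfx2 kept 1. Rfx5 had 5 and Rfx6 had 0. Rfx7, tied with Rfx5 and described after its value was seen, had 5, of which 4 ended at Mns1, an axonemal gene that is not among the 113.

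**Figure D3:**
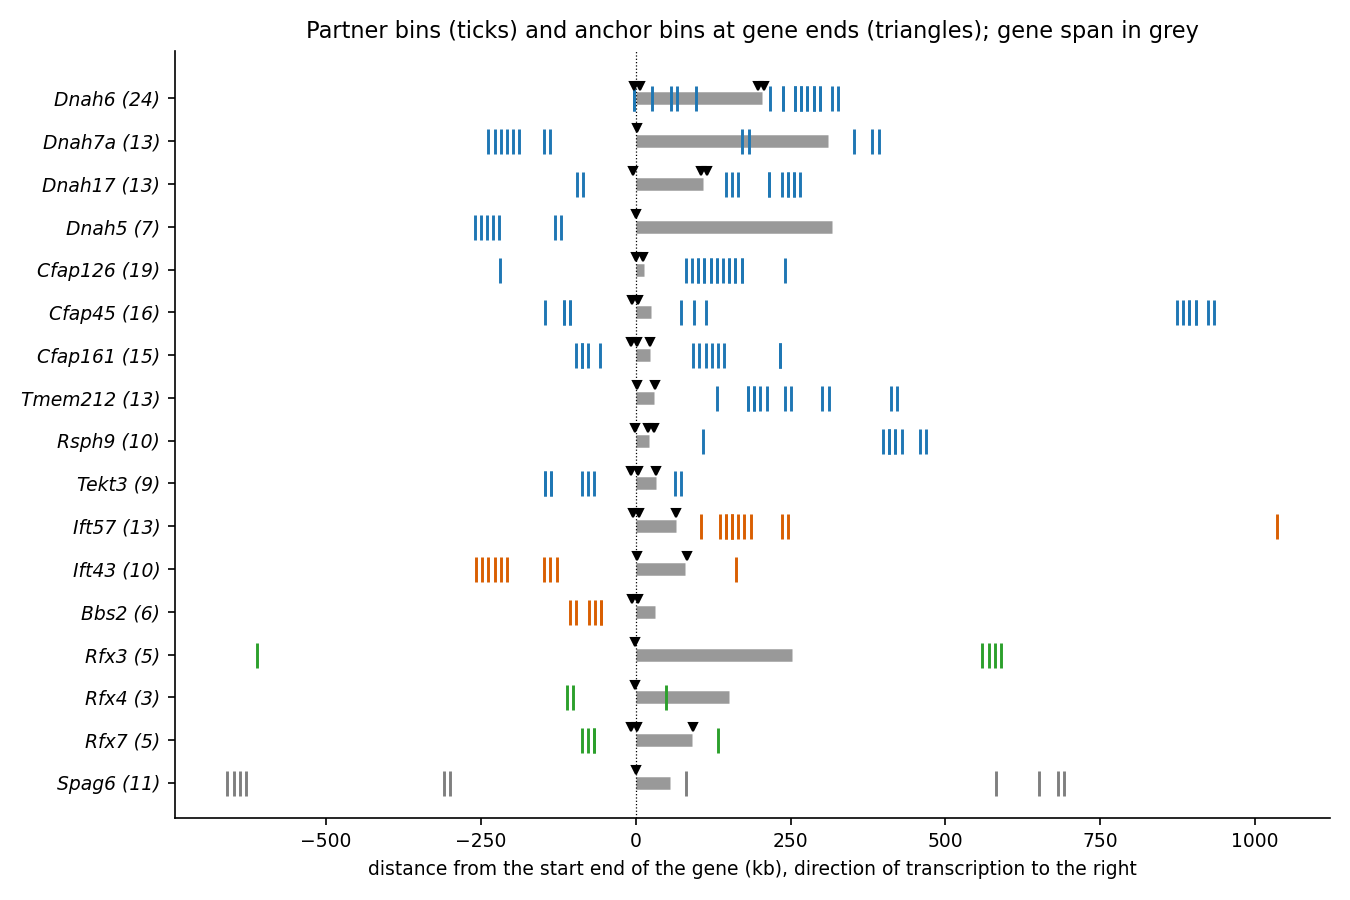
Partner bins (coloured ticks) of 17 cilium genes by distance from the start end of each gene in kb (x axis, transcription to the right), with the gene span in grey, triangles at the end bins that took part and the number of interactions in brackets. Distances in the text run between the 2 anchors, so that the longest Ift57 interaction, 970 kb from the opposite end, is drawn farther out. Cfap45 has partners up to 930 kb away, and the partners of Dnah5, Tmem212, Rsph9 and Bbs2 lie on 1 side.

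The Spag family, named for sperm-associated antigens, was mixed. Of 12, 7 had an interaction (58.3%) and the median was 1, beside 65.7% and a median of 2 over all coding genes. Spag6, a central-apparatus gene, had 11, all at its start end, which shared its bin with an end of the predicted gene Gm46725, and 8 of them spanned 580 to 690 kb. With a window of 5 kb it had 19. Spag9 had 9. Spag16 and Spag17, also central-apparatus genes, had 0. Spag6l, a separate member on chromosome 16 described after its value was seen, had 0 too.

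Interactions lay at the start end more often than at the opposite end, and the gap was smaller in the motile subset, a difference that was not tested. The comparison is limited to genes with a strand in the RefSeq promoter table and with ends in separate bins. Of 15 such Ift/Bbs genes, 12 had an interaction at the start end (80.0%) and 4 at the opposite end (26.7%). Of 55 such motile genes, 32 had one at the start end (58.2%) and 24 at the opposite end (43.6%). Over 10653 coding genes it was 65.5% and 44.1%. The opposite end had more interactions than the start in 14 of 55 motile genes (25.5%), in 2 of 15 Ift/Bbs genes (13.3%), in 0 of 7 Rfx genes and in 18.9% of coding genes. Tmem212, Dnah2, Dnah17, Cfap43, Drc7 and Rsph9 were among the 14. Counted at all tabulated starts, 35 of 60 motile genes (58.3%) and 14 of 19 Ift/Bbs genes (73.7%) had an interaction, beside 60.1% of coding genes.

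**Figure D4:**
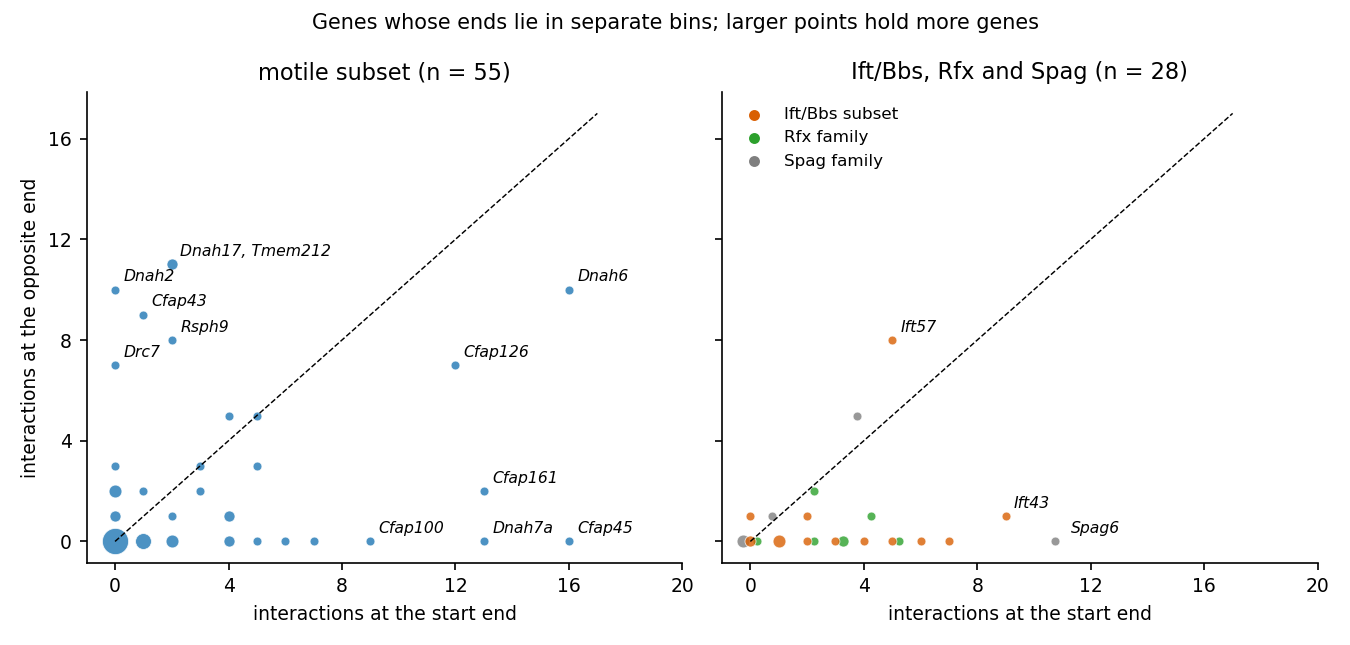
Interactions at the start end (x axis) and at the opposite end (y axis) of each gene whose ends lie in separate bins, for the motile subset (left, 55 genes) and the Ift/Bbs, Rfx and Spag families (right, 28 genes); point size grows with the number of genes at the same position, Rfx and Spag points are shifted slightly sideways so that they can be seen, and the dashed line marks equal numbers. Dnah2, Dnah17, Tmem212, Cfap43, Rsph9 and Drc7 lie well above the line, and no Rfx gene has more at the opposite end.

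Over all members, 459 distinct interactions touched a gene end, and 225 contacts remained after adjacent ones were merged. The median distance was 150 kb (quartiles 90 and 260), beside 170 kb (100 and 300) for interactions of all coding genes. For the motile subset it was 150 kb, for Ift/Bbs 170 kb, for Rfx 80 kb and for Spag 305 kb. The other anchor held an end of a coding gene outside the group in 51.1% of motile and 61.5% of Ift/Bbs interactions, and in 33.8% of those of the Dnah family. Over all coding genes, 45.5% of anchors at a gene end had a coding-gene end at the other anchor. The same count by interaction, where a pair of gene ends counts once, gave 29.5%. Gene lengths differed as well. The median was 41.7 kb in the motile subset, 238 kb for Dnah, 34.8 kb for Ift/Bbs and 17.5 kb over all coding genes, so long members have most of their body outside the windows. Ends in separate bins also give a longer gene more bins in which interactions are counted, an effect that was not tested. At tabulated starts, 63.5% of 96 cilium genes had an interaction, beside 60.1% of coding genes. Over the whole span Cfap54, a gene of 308 kb, had 81 interactions against 8 at its ends, and Cfap299, of 473 kb, had 32 against 0. Both were chosen after their values were seen, and no bin of either held an end of another coding gene.

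Promoter sequence added a property that the choice by symbol did not use. The RefSeq table (GRCm38.p6) gave the 250 bases before and 50 bases after a start for 96 of the 113 genes. A match to the X-box, searched on both strands as 2 half-sites with up to 3 bases between them, was present in 12 of 96 (12.5%), beside 1.78% of 16457 coding genes. By subset it was 9 of 60 motile, 2 of 19 Ift/Bbs, 1 of 9 Spag and 0 of 8 Rfx genes. Of the 12 genes with a match, 7 had an interaction at the start (58.3%), as did 54 of 84 without one (64.3%). The TEAD motif CATTCC was present in 9 of 96 (9.38%), beside 15.3% of coding genes. All 9 were among the 60 motile genes, a share of 15.0%, close to that of coding genes. The forkhead motif TGTTTAC was present in 5 (5.21%), beside 3.49%, and the palindromic NFI motif in 0, beside 0.0425%.

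The stretches below were chosen to show the X-box, in capitals, at starts with and without a listed contact. They run 5′ to 3′ in the direction of transcription and lie outside the annotated span of the gene. Cfap45 at chr1:172521051-172521129 (plus strand) had 16 interactions at this start, Tekt2 at chr4:126325689-126325777 (minus strand) had 7, Ift57 at chr16:49699147-49699260 (plus strand) had 5 and Cfap58 at chr19:47937593-47937705 (plus strand) had 5. Ccno at chr13:112987552-112987636 (plus strand) and Cfap20dc at chr14:8666339-8666452 (minus strand) had 0. Tekt2 has 2 tabulated starts with the same X-box.
Cfap45: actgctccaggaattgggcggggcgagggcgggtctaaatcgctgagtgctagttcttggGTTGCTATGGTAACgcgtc
Tekt2: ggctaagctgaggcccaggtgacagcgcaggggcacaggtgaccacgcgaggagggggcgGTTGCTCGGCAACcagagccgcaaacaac
Ift57: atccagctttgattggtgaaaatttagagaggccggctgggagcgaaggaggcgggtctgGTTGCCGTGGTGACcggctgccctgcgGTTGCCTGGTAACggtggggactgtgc
Cfap58: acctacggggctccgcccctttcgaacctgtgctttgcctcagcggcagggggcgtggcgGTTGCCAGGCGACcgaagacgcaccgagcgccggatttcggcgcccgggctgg
Ccno: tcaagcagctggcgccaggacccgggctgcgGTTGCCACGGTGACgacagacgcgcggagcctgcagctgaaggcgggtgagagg
Cfap20dc: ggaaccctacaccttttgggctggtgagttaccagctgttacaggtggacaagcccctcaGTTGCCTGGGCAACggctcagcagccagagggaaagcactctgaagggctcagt

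The X-box begins 19 bases before the start in Cfap45, 29 before the nearer start of Tekt2, 59 in Cfap58, 102 in Cfap20dc and 219 in Ccno. Ift57 holds 2 matches within the stretch shown, the first 87 bases before the start.

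Cilium genes outside these families were scored from lists drawn up by function. Of 34 other axonemal, docking and dynein assembly genes, 29 had one (85.3%). Their median was 4, led by Enkur with 33, which shared its bins with another coding gene. Merging of adjacent interactions left 4 contacts for Enkur, and 17 of its interactions were counted at its tabulated start. Hydin, a central-apparatus gene whose loss causes hydrocephalus, had 1, and Pifo, Ak8, Armc4, Dnaaf6 and Lrrc6 had 0. Of 32 further transport genes, among them Wdr19 with 12, Lztfl1 with 10 and Dync2h1, the retrograde transport motor, with 7, 26 had one (81.3%), and the median was 3. Kif3a, a subunit of the anterograde motor, had 0. Of 32 transition zone and basal body genes, which gate and root the cilium, 27 had one (84.4%), and the median was 5.5. Poc1a had 23 and Ahi1 22, each in bins of its own, whereas Mks1, Rpgrip1l, Tmem231 and Sclt1 were among those with 0. These 3 shares stand beside 65.7% of all coding genes and 69.0% of the motile subset. Most genes of the 3 lists shared an end bin with another coding gene. Of all coding genes with a shared bin, 75.4% had an interaction.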

How the data were processed

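Per the file header, the deposited list holds 2 anchors for each interaction and for each anchor its chromosome and both bounds. These positions, in base pairs of mm10, are its only values, and the name of the list marks the interactions as significant. Per the submitters' processing notes, BWA and mm10 were used. For the interaction caller, its threshold and any pooling of libraries, the method is not given in the sources used here. No read depth can be derived, so no error beyond exact (Clopper-Pearson) 95% intervals of shares was computed.

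Gene positions came from RefSeq (GRCm38.p6, the assembly of mm10), and strand and starts from its promoter table, which matched 96 of 113 members. The suffix of a symbol could hold lower-case letters and a digit. Coordinates are printed from base 1. The members and lists were chosen with earlier results of these data known. Genes named by rule were the 2 with the most interactions in each of 9 families, the 8 taken by name and 18 listed genes, 41 in all since 3 (Drc1, Rfx3 and Rsph9) came in by 2 of these ways; other members were named after their values were seen. Some partner and list genes are not reported here. Partner genes have an end in a partner bin; the motif searches used fixed patterns.

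Counting was tested on invented interactions. Alternatives were windows of 0 and 5 kb, the bin midpoint, the whole span, tabulated starts, merging of interactions within 1 bin at both anchors, a minimum of 40 kb, genes alone in their bins, symbols ending in digits, and Spag added to the motile subset. Python 3.11.15, pandas 2.3.3 and scipy 1.17.1 were used.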

Additional observations from a re-analysis of the deposited data

How the results depend on the processing

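No paired analysis was possible because no value in the list belongs to a single library, and for the same reason no library could be left out and tumor was not compared with stem cells. Windows of 0 and 5 kb, a minimum distance of 40 kb, symbols ending in digits and Spag added to the motile subset left the shares within their intervals and the medians within 1.5 times. With the bin midpoint inside the window, the share with an interaction was 55.75% for cilium and 52.11% for motile genes (40.49% of coding genes), the share with 10 or more was 4.425% for cilium, 5.634% for motile and 0% for Ift/Bbs genes (5.633% of coding genes), and the medians were 1, 1 and 1.5. A window around a gene end can hold no bin midpoint, and that end then counts 0 whatever the list holds. The lower values by midpoint are therefore set in part by gene coordinates. At tabulated starts the share with 10 or more was 6.25%, 8.333% and 0% (11.36% of coding genes), and the medians of cilium and motile genes were 1.5 and 1. After merging, no member had 10 contacts (0% in the 3 groups), beside 1.098% of coding genes. Over the whole span 21.24% of cilium genes had 10 or more, beside 23.61% of coding genes. The median of the 4 Ift/Bbs genes alone in their bins was 5.5. The share of genes with an interaction was higher in Ift/Bbs than in the motile subset under these settings except among genes alone in their bins (75% and 78.26%). Of 41 named counts, 21 moved by over 1.5 times on merging and 15 with the midpoint. The list sets the limit of detection, and its depth is unknown.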
